A study of Mus musculus with 4 samples.

Results

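The population described is 1 of 34 that the authors named in 8880 single cells of the mouse epididymis and vas deferens. It is the one deposited population name held by exactly 240 cells. The deposited name is MuscleGfra4, and it is called Muscle 2 here, after the numbering in the study. The 240 cells were 2.70% (Clopper-Pearson 95% interval 2.38 to 3.06) of all cells. A second muscle population, deposited as Muscle and called Muscle 1 here, held 262 cells. The cells deposited as Connective, which the study takes to be presumed myofibroblasts and which are called myofibroblasts here, numbered 975, and all cells outside both muscle populations 8378.

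Of the 4 libraries, 3 were made from the epididymis (its head or caput, body or corpus, and tail or cauda) and 1 from the vas deferens. Behind each library lay 8 pieces of tissue, pooled from 4 untreated male FVB/NJ mice, an inbred strain, aged 10 to 12 weeks. The same 4 mice gave the pieces of all 4 libraries, which therefore share animals. The tissue was freed of most sperm, digested with collagenase and then trypsin, and loaded on the 10x platform, which counts the 3′ ends of transcripts by unique molecular identifiers (UMIs). The 4 libraries hold between 4408989 and 10744928 UMIs, and the median cell holds between 1433 and 2207. With 1 library per region there are no replicates, the populations were themselves cut from these counts, and cells are not replicates, so the values below are descriptions with no test. A level is the sum of a gene's UMIs in all cells of a population, per 1000000 UMIs of that population (UPM). Ratios of levels carry exact conditional 95% intervals, levels exact Poisson intervals and shares Clopper-Pearson intervals, which all cover counting error only and not the spread between animals or dissections.

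Muscle 2 was found almost wholly in 2 libraries. The vas deferens held 207 of the 240 cells, which is 86.2% (81.2 to 90.3) of Muscle 2 and 5.90% (5.15 to 6.74) of that library. The cauda held 31 cells, which is 1.92% (1.31 to 2.71) of its library, the corpus held 2 cells, and the caput held 0 of 1433 cells, with a Clopper-Pearson upper limit of 0.257% (0.209% from a floor of 3 cells). Among muscle cells alone, Muscle 2 made up 47.4% (42.6 to 52.2) in the vas deferens and 53.4% (39.9 to 66.7) in the cauda, so the 2 muscle populations were present in near equal numbers in both places.

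The 240 cells held 1222218 UMIs, and 3 UMIs among them correspond to 2.45 UPM. The median cell held 5423.5 UMIs and 1868 genes, against 1080.5 UMIs and 697 genes in Muscle 1 and 3821 UMIs and 1516 genes in myofibroblasts. Single cells of Muscle 2 ranged from 260 to 11544 UMIs, and 223 of 240 had at least 1000. Of all cells, 86 shared a barcode with a cell of another library, and 0 of these were in Muscle 2. A doublet caller marked 178 of the 8880 cells, among them 15 of Muscle 2, all in the vas deferens, and these were kept. The 2 corpus cells stood apart: 1 had 5463 UMIs with 34 of *Tpm2* and 108 of *Acta2*, yet 0 of *Tnnc2*, *Actg2* and *Pcp4*, and it held all 25 *Rergl* UMIs of the population. The other had 383 UMIs. Results that rest on that cell are given below with and without it.

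Smooth muscle shortens when calcium that enters the cell or leaves the sarcoplasmic reticulum binds calmodulin, which switches on myosin light chain kinase. The kinase phosphorylates the light chains of smooth muscle myosin, and the myosin then pulls on thin filaments of smooth muscle actin and tropomyosin that are anchored in dense bodies. The muscle coat is thick in the vas deferens, where sympathetic nerves release ATP and noradrenaline to expel sperm at ejaculation, and it thickens along the epididymis toward the cauda. Many genes of this machinery carry a CArG box, the site bound by serum response factor and its partner myocardin, close to their start.

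The promoters of the filament genes were searched for a CArG box, to show where the letters of this site stand in some of them. The motif is its own reverse complement, so both strands are read at once, and the window was the RefSeq promoter from 250 bases before to 50 bases after each start on GRCm38.p6. It was found for 11 of 57 filament genes with a promoter sequence (19.3%), against 206 of 12593 genes of the matrix (1.64%), 3 of 21 genes of skeletal and cardiac muscle (14.3%), 1 of 62 ribosomal protein genes (1.61%) and 0 of 66 respiratory chain genes. Shown are the 250 bases before the start, in the direction of the gene, for the 6 filament genes with the box that had the highest levels in Muscle 2, and for *Ldb3*, the one with the largest ratio to myofibroblasts. Capitals mark the CArG box, whose first base lies between 35 and 227 bases before the start in these 7. The windows are chr10:128493010-128493259 (− strand) for *Myl6*, chr2:156775214-156775463 (+) for *Myl9*, chr8:123894776-123895025 (−) for *Acta1*, chr11:120348496-120348745 (−) for *Actg1*, chr14:20929148-20929397 (+) for *Vcl*, chr14:45530066-45530315 (−) for *Fermt2* and chr14:34588682-34588931 (−) for *Ldb3*. *Tpm2*, *Mylk*, *Myh11*, *Acta2*, *Actg2* and *Tagln* were not among the 11, having no match in this window or no promoter sequence. The genes shown are therefore not the filament genes with the highest levels in these cells. A match is a description of the letters and not a measured binding site.
Myl6: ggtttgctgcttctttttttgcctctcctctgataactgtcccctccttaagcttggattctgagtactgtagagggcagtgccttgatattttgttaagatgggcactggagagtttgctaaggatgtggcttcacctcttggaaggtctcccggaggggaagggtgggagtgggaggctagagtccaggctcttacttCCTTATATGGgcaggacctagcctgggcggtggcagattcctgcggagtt
Myl9: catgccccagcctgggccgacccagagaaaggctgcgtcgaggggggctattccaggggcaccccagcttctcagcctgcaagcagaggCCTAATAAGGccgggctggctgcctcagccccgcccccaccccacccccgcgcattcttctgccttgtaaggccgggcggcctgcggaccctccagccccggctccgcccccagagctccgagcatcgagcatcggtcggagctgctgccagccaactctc
Acta1: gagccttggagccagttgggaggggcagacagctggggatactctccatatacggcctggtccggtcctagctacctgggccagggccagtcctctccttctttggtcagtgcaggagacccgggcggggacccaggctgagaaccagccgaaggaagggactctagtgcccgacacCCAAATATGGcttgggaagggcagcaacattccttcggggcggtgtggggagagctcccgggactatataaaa
Actg1: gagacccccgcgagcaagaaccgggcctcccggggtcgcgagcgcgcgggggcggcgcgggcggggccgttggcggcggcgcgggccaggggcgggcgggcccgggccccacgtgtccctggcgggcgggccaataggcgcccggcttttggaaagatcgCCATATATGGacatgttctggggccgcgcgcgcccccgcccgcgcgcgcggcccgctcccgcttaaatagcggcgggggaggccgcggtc
Vcl: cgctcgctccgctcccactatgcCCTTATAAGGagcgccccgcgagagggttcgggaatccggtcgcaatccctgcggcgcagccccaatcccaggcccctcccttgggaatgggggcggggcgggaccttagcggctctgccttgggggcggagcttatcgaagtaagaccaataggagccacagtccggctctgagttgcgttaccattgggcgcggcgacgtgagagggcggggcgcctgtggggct
Fermt2: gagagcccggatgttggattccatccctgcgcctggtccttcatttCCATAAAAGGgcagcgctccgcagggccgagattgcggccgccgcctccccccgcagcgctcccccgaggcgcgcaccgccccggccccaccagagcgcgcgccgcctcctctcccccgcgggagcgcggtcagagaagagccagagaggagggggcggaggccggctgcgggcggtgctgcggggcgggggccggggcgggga
Ldb3: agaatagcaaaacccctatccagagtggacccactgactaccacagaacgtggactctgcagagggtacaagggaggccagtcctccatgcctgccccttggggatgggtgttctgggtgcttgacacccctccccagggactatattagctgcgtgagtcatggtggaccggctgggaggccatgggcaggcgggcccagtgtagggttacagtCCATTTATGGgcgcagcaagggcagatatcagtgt

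The 7 genes did not share a direction against myofibroblasts. *Ldb3*, a Z-disc protein, had a ratio of 69.5, *Acta1*, the skeletal α-actin, 22.5, and *Vcl*, the attachment protein vinculin, 3.69. *Myl6* and *Myl9*, which encode light chains of myosin, had ratios of 3.08 and 3.03. *Actg1*, the cytoplasmic γ-actin found in most cells, and *Fermt2*, an activator of integrins, were lower in Muscle 2, at 0.614 and 0.678 times the myofibroblast level.

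The 3 markers of the label smooth muscle were described first. The study named its muscle clusters by cytoskeletal genes that include these 3. Their high levels therefore describe that naming and are no check of the label. *Tpm2* encodes β-tropomyosin, which lies along the thin filament (chr4:43514711-43523765, − strand, GRCm38). *Mylk* encodes myosin light chain kinase (chr16:34745210-35002420, + strand), and 3′ tags do not separate the kinase from telokin, a short protein made from the same gene. *Myh11* encodes the heavy chain of smooth muscle myosin (chr16:14194535-14291372, − strand). All 3 were far higher in the 2 muscle populations than in any of the other 32.

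*Tpm2* stood at 23067 UPM (22799 to 23338) in Muscle 2, 11168 in Muscle 1 and 2551 in myofibroblasts, the next highest population. *Mylk* stood at 19939 UPM (19689.6 to 20191) in Muscle 2 and 24381 in Muscle 1, with 2508 in the next population, StromalIL6. *Myh11* stood at 6279.6 UPM (6139.9 to 6422) in Muscle 2 and 9794 in Muscle 1, with 1529.9 in StromalIL6. *Tpm2* was thus highest in Muscle 2, and *Mylk* and *Myh11* were highest in Muscle 1. Muscle 2 exceeded the highest non-muscle population 9.04-fold for *Tpm2*, 7.95-fold for *Mylk* and 4.10-fold for *Myh11*, and the median non-muscle population had 57.5, 66.9 and 12.3 UPM.

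The markers were high in the cells of both regions. *Tpm2* was 22807 UPM in the vas deferens cells and 24664 in the cauda cells. *Mylk* was 21569 and 13152, and *Myh11* 6664 and 4687, so these 2 were lower in the cauda cells. After each cell was thinned to 1000 UMIs, *Tpm2* was seen in 99.1% (96.8 to 99.9) of 223 Muscle 2 cells, *Mylk* in 100% (98.4 to 100) and *Myh11* in 99.1% (96.8 to 99.9). The corresponding shares in 879 myofibroblasts were 68.7%, 65.5% and 50.1%, and in 284 basal epithelial cells of the vas deferens, which should lack these genes, 4.93%, 5.63% and 2.46%. The median cell held 5423.5 UMIs in Muscle 2 and 3778 in those basal cells. Without thinning, the shares in Muscle 2 were 99.2%, 99.2% and 96.7%, and those in the basal cells 7.22%, 7.90% and 3.44%.

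**Figure D1:**
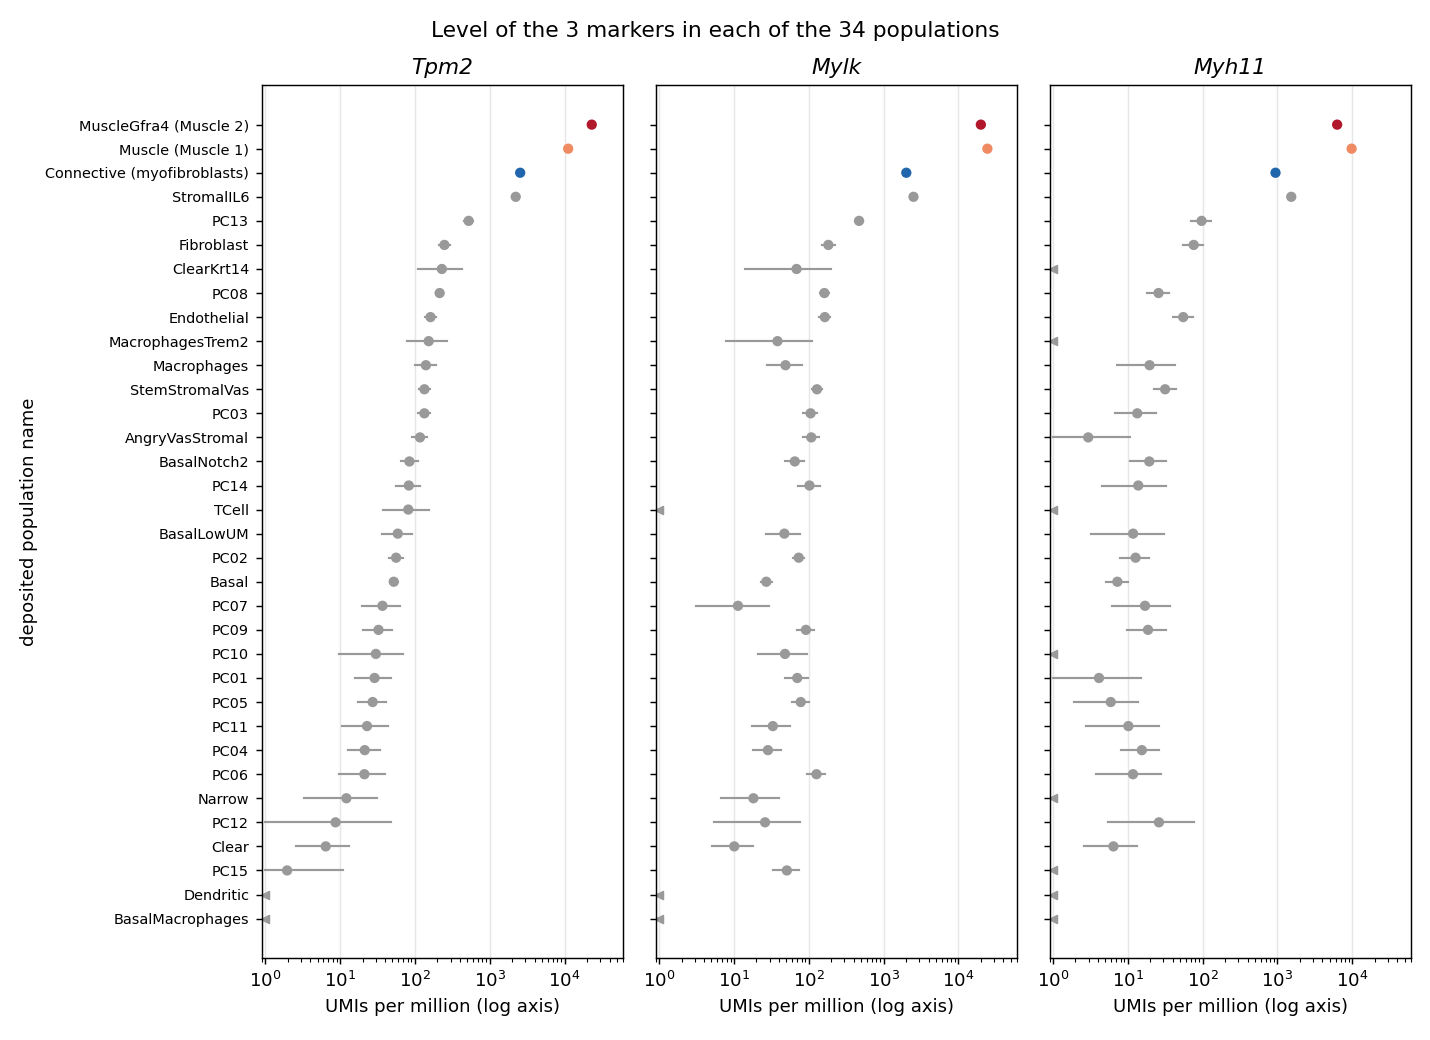
Level of *Tpm2*, *Mylk* and *Myh11* in each of the 34 populations, in UPM on a log axis, with exact Poisson 95% intervals as bars; triangles at the left edge mark populations with 0 UMIs. Muscle 2 (dark red) and Muscle 1 (orange) stand right of every other population for all 3 genes, with myofibroblasts (blue) and StromalIL6 next.

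Muscle 2 was next compared with the myofibroblasts, the connective tissue population that shares part of the contractile program. A gene entered when the population with the higher level had 20 UMIs or more of it, and was counted at a ratio of at least 4. Of 8879 genes entered, 314 were at least 4-fold higher in Muscle 2 (3.54%) and 1084 at least 4-fold lower (12.2%). These shares of all genes are the ones to set beside the list counts against myofibroblasts of all libraries below. The limit of 20 UMIs was 16.4 UPM in Muscle 2 and 5.21 UPM in myofibroblasts, so more genes could enter by being higher in myofibroblasts. The median ratio over all genes entered was 0.785. Since cells were assigned to the populations by these same counts, the size of the difference is a description of the cut and supports nothing by itself.

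Of the 31 gene lists examined, the filament lists counted together took the largest share of RNA in these cells. Taken singly, each filament list took less than the ribosomal protein list described below. The 67 filament genes took 18.9% of the UMIs of Muscle 2, 17.6% of Muscle 1, 5.34% of myofibroblasts and 2.21% of non-muscle cells. The share of Muscle 2 was 19.2% in the vas deferens and 17.7% in the cauda. Of 63 filament genes entered, 15 were at least 4-fold higher than in myofibroblasts and 4 at least 4-fold lower, with a median ratio of 2.18.

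Within the thin filament list, 6 of 18 genes were at least 4-fold higher and 2 lower. *Actg2*, the γ-actin of gut and other visceral muscle, had 15395 UPM against 839 (ratio 18.3, 17.7 to 19.1). *Acta2*, the α-actin that myofibroblasts also make, had 17492 against 7212 (2.43, 2.38 to 2.47). The 2 smooth muscle actins thus differed in how far they separated the populations, also within each library. *Actg2* was 24.5 times the myofibroblast level in the vas deferens and 12.3 times in the cauda, and *Acta2* 2.65 and 2.99 times. *Tagln*, which encodes the actin-bundling transgelin, had a ratio of 2.53 (2.48 to 2.59), *Tpm1*, the α-tropomyosin gene, 3.89 (3.80 to 3.99), and *Actb*, the cytoplasmic β-actin, 2.53 (2.48 to 2.59). *Tpm2* was 9.04-fold (8.83 to 9.25) higher in all cells, 8.29-fold in the vas deferens and 8.06-fold in the cauda.

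Of 17 genes for myosin, its kinase and its phosphatase, 3 were at least 4-fold higher and 0 lower, with a median ratio of 1.08. *Mylk* was 9.91-fold (9.66 to 10.2) and *Myh11* 6.66-fold (6.40 to 6.93) higher. Within the vas deferens these ratios were 8.97 and 4.99, and within the cauda 7.58 and 4.63. The third was *Ppp1cb*, a catalytic subunit of myosin phosphatase, at 4.37 (4.10 to 4.66). The light chain genes *Myl6* and *Myl9* had ratios of 3.08 and 3.03, and *Ppp1r12a*, the subunit that guides the phosphatase to myosin, 1.69.

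Of 28 genes for intermediate filaments, dense bodies and attachment, 6 were at least 4-fold higher and 2 lower, with a median ratio of 2.23. *Synm* and *Synpo2*, which encode the filament protein synemin and the Z-disc protein myopodin, were 10.3-fold (9.38 to 11.4) and 7.83-fold (7.20 to 8.52) higher, and *Pdlim7*, a PDZ and LIM adaptor, 5.20-fold (4.82 to 5.62). *Des*, the muscle intermediate filament desmin, was 3.41-fold (3.27 to 3.55) higher, and its myofibroblast level in the cauda (2257 UPM) was above that in the vas deferens (777 UPM). *Flna*, which cross-links actin, and *Csrp1*, a LIM protein, had ratios of 3.57 and 2.18. *Vim*, the vimentin filament of most mesenchymal cells, went the other way, at 121 UPM against 816 (0.148), and 97 of its 148 UMIs in Muscle 2 lay in the 1 corpus cell described above. *Vim* is the one list member named in this paragraph for its values. In the vas deferens cells of Muscle 2 it had 49 UMIs (49.3 UPM), and in the cauda cells 1.

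**Figure D2:**
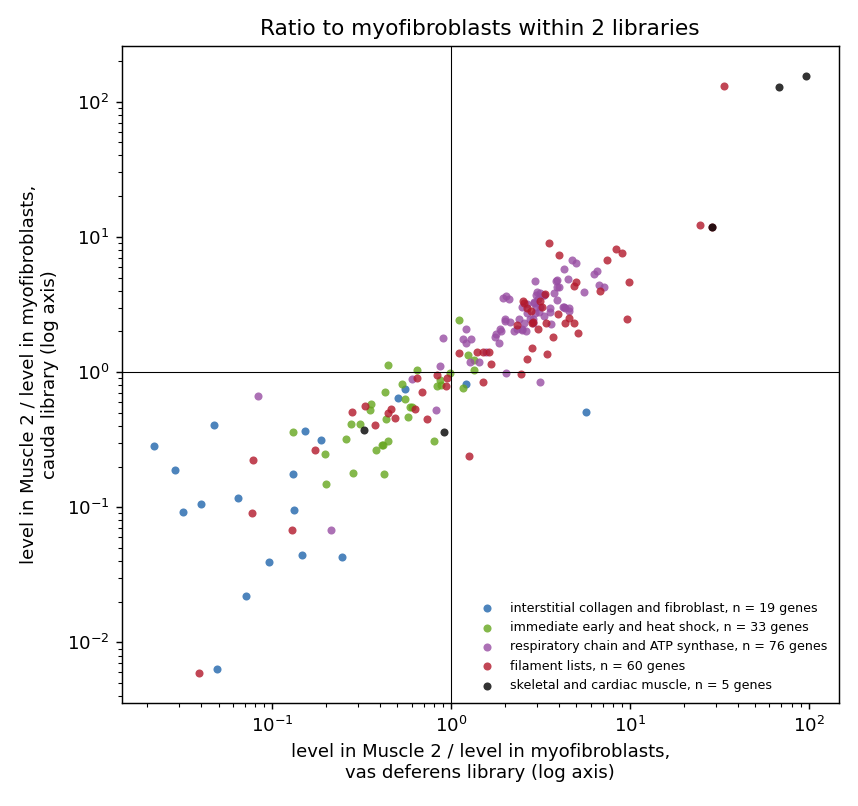
Ratio of the level in Muscle 2 to the level in myofibroblasts within the vas deferens library (horizontal, log axis) and within the cauda library (vertical, log axis) for genes of 5 lists that had at least 20 UMIs in either population in both libraries; each point is 1 gene and the black lines mark a ratio of 1. Respiratory chain genes lie mostly in the upper right, collagen and immediate early genes mostly in the lower left, and filament genes in both.

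A gene of fast skeletal muscle had the largest ratio of all. The list of skeletal and cardiac muscle genes has 31 genes, of which 24 were in the matrix and 7 reached 20 UMIs in Muscle 2. *Tnnc2*, the calcium-binding troponin subunit of fast skeletal fibers, had 2978 UPM (2882 to 3077) in Muscle 2 against 8.34 in myofibroblasts, a ratio of 357 (253 to 523). It was at 3309 UPM in the vas deferens cells and 1582 in the cauda cells, against 34.5 and 10.2 in the myofibroblasts of these libraries. *Ckm*, the creatine kinase of striated muscle, had 935 UPM against 7.82 (ratio 119.6, 83.3 to 178). Within the vas deferens the ratios of *Tnnc2* and *Ckm* were 95.9 and 67.8, and with the corpus library left out that of *Tnnc2* was 215. Both genes thus stood far above the myofibroblasts of the same library, by less than in the pooled libraries. *Acta1*, the skeletal α-actin, had 2454 against 109 (22.5, 20.3 to 25.0). *Casq1*, which stores calcium in the sarcoplasmic reticulum, had 89.2 against 5.21 (17.1, 10.6 to 29.1), and *Tnnt3*, the fast troponin T, 92.5 against 7.04 (13.1, 8.57 to 20.8). *Tnnt1*, the slow troponin T, ran the other way, at 120.3 against 256 (0.469, 0.392 to 0.558).

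These genes were spread over most cells of the population. *Tnnc2* was seen in 68.6% (62.1 to 74.6) of the 223 cells thinned to 1000 UMIs, *Acta1* in 75.3% (69.1 to 80.8) and *Ckm* in 53.8% (47.0 to 60.5). In 140 thinned Muscle 1 cells the shares were 41.4% (33.2 to 50.1), 78.6% (70.8 to 85.1) and 68.6% (60.2 to 76.1). The genes were thus not particular to Muscle 2, and *Ckm* was seen in a larger share of Muscle 1. The shares in the thinned basal cells of the vas deferens were 0.352%, 3.17% and 0.704%, and those in myofibroblasts 0.796%, 4.21% and 0.796%. Unthinned shares in Muscle 2 were 76.7%, 85.4% and 77.5%, against 1.72%, 4.12% and 0.687% in the basal cells. *Tnnt2*, the cardiac troponin T, had 35.2 UPM against 225 in myofibroblasts, and 8 of the 24 genes were at 0 in Muscle 2. *Ldb3*, which belongs to the filament lists, had 254 UPM against 3.65 (69.5, 40.8 to 129), and a ratio of 33.5 within the vas deferens.

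The genes of calcium entry and storage leaned higher. Of 25 entered, 7 were at least 4-fold higher and 1 lower, with a median ratio of 1.89. *Atp2a2*, the pump that refills the sarcoplasmic reticulum, had 2086 UPM against 355 (5.87, 5.498 to 6.28), and 4.15 and 4.06 times the myofibroblast level within the vas deferens and the cauda. *Jph2*, which holds that store close to the surface membrane, had a ratio of 6.44 (5.41 to 7.69), and *Camk2g*, a calmodulin-dependent kinase, 3.61 (3.14 to 4.15). *Calm2*, which encodes calmodulin, had a ratio of 1.44, and *Atp2b4*, a pump of the surface membrane, 3.23. *Pcp4*, a small protein that binds calmodulin, had 16483 UPM (16256 to 16712) in Muscle 2 and 232 in myofibroblasts, a ratio of 71.1 (66.5 to 76.2) in all cells and 21.6 within the vas deferens. It was seen in 98.7% of the thinned cells against 7.85% of myofibroblasts and 3.52% of the basal cells, and unthinned in 96.2%, 10.1% and 5.15%. *Ank1*, an ankyrin whose small muscle form ties the store to the filaments, had 638 UPM against 13.8 (46.2, 35.0 to 62.2). Its ratio was 14.7 within the vas deferens, 30.7 without the corpus library and 79.4 without the called doublets.

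Of the caveolae and dystrophin complex, 4 of 15 genes were at least 4-fold higher and 0 lower. *Cav1*, the main caveolar coat protein, had a ratio of 4.03 (3.75 to 4.34) in all cells, but 1.95 in the vas deferens and 2.48 in the cauda. *Sdpr*, a coat protein of the same membrane pits, had 4.24 (3.64 to 4.95), and *Dmd*, dystrophin, 2.74 (2.43 to 3.08). The small heat shock proteins of muscle gave 1 gene higher of 6: *Hspb6*, a chaperone that is a target of cyclic nucleotide kinases, had 919.6 UPM against 24.8 (37.1, 30.1 to 46.3), while *Hspb1* (0.988), *Hspb8* (0.798) and *Cryab* (0.437) did not reach 4-fold in either direction.

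Of 15 ion channel genes entered, 3 were at least 4-fold higher and 3 lower. Within single libraries the list lay lower. In the vas deferens 1 was higher and 6 lower of 14 (median ratio 0.484), beside 5.13% and 9.9% of all genes (median 0.929). In the cauda 1 was higher and 3 lower of 8 (median 0.274). Of all genes there, 2.33% were higher and 12.7% lower (median 0.649), so these leaned lower too. *Kcnk3*, an acid-sensitive background potassium channel, had 106 UPM against 13.0 (8.16, 5.85 to 11.6), and *Kcnma1*, the large calcium-activated potassium channel, 55.6 against 13.0 (4.27, 2.92 to 6.28). Its smooth muscle β subunit *Kcnmb1* had 47.5 against 20.8 (2.28, 1.59 to 3.23). In the vas deferens library, the ratio of *Kcnma1* was 1.46 and that of *Kcnmb1* 1.05, so neither stood clear of the myofibroblasts of the same library there. Outside the list, *Kcnc1*, a fast voltage-gated potassium channel, had 67 UMIs against 5 (ratio 42.1, 17.2 to 134), and *Kcnj2*, an inward rectifier, 40 against 3 (41.9, 13.3 to 212).

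Among receptors for transmitters and hormones, 1 stood far above the rest. *P2rx1*, the ATP-gated channel through which sympathetic nerves contract the vas deferens, had 580.1 UPM (538 to 624) in Muscle 2, 1477 in Muscle 1 and 5.99 in myofibroblasts, a ratio to the last of 96.8 (64.0 to 154). The ratio was 33.9 within the vas deferens and 59.7 with the corpus library left out. It was at 612 UPM in the vas deferens cells and 453 in the cauda cells of Muscle 2. It was seen in 40.4% (33.9 to 47.1) of thinned Muscle 2 cells, 75% (67.0 to 81.9) of thinned Muscle 1 cells and 0.704% of thinned basal cells, and without thinning in 80.4%, 71.4% and 4.81%. Unthinned shares thus put Muscle 2 first, with median cells of 5423.5 against 1080.5 UMIs, while the levels and the thinned shares put Muscle 1 first.

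The other receptors were low. Of 51 receptors in the matrix, *P2rx1* included, 32 had a UMI and 8 had at least 20. Of 20 entered, 2 were at least 4-fold higher, *P2rx1* among them, and 8 lower (median ratio 0.311), beside 3.54% and 12.2% of all genes. Within the vas deferens 2 were higher and 2 lower of 7 (median 0.830), beside 5.13% and 9.9% of all genes. Within the cauda 1 was higher and 3 lower of 8 (median 0.377), beside 2.33% and 12.7%. *Chrm2*, the M2 muscarinic receptor for acetylcholine, had 26 UMIs in Muscle 2 (21.3 UPM) and 0 in myofibroblasts, which is at least 27.2-fold higher against a floor of 3 UMIs. *Oprm1*, the μ opioid receptor, had a ratio of 0.968 (0.760 to 1.22), *Npy1r*, a receptor for the sympathetic cotransmitter neuropeptide Y, 2.20 (1.31 to 3.65), and *Esr1*, the estrogen receptor, 2.51 (1.41 to 4.44). *Ednra*, the endothelin A receptor, and *Nr3c1*, the glucocorticoid receptor, were lower, at 0.500 (0.387 to 0.638) and 0.414 (0.295 to 0.568). None of these 5 reached 4-fold in either direction.

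The gene in the deposited name was scarce. *Gfra4*, a receptor of the GDNF family whose ligand is persephin (chr2:131039632-131043088, − strand), had 92 UMIs in Muscle 2 (75.3 UPM, 60.7 to 92.3), 12 in Muscle 1 (39.6 UPM) and 16 in myofibroblasts (4.17 UPM). It was highest in Muscle 2 of all 34 populations, 18.1-fold (10.5 to 32.9) over myofibroblasts, 4.51-fold (2.39 to 9.39) over those of the vas deferens alone, and 1.90-fold (1.04 to 3.81) over Muscle 1. Thinned to 1000 UMIs it was seen in 8.97% (5.56 to 13.5) of Muscle 2 cells, 3.57% (1.17 to 8.14) of Muscle 1 cells and 0 of 284 basal cells of the vas deferens. Unthinned, the shares were 28.3% (22.7 to 34.5), 4.58% (2.39 to 7.86) and 0 of 291, so the gap between the muscle populations was wider before thinning than after. *Gfra4* had 81 UMIs in the vas deferens cells (81.6 UPM) and 11 in the cauda cells (49.3 UPM).

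The other neurotrophic genes with at least 20 UMIs did not move as a group. Of 14 entered, 2 were at least 4-fold higher and 3 lower, beside 3.54% and 12.2% of all genes. Their median ratio was 0.389, beside 0.785 over all genes. *Cntn1*, an adhesion molecule of axons, was the other higher gene (6.09, 3.30 to 11.7, from 33 UMIs). *Sema3c*, a secreted guidance cue, had 358 UPM against 182 (1.97), and *Ncam1*, a neural adhesion molecule, 17.2 against 36.7 (0.468). *Unc5d*, a receptor for netrins outside the list, had 55 UMIs against 2 (ratio 86.3, 22.8 to 731), and *Rims1*, a scaffold of transmitter release sites, 38 against 1 (119, 20.2 to 4835).

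The rest of the 15 largest ratios rested on few UMIs. *Pilra*, an inhibitory receptor of myeloid cells, had 103 UMIs in Muscle 2 and 0 in myofibroblasts, at least 108-fold higher, and all 103 lay in the vas deferens cells. *Amhr2*, the receptor for anti-Müllerian hormone, had 52 UMIs against 1 (163, 28.0 to 6571), and *Rspo2*, a secreted amplifier of Wnt signals, 39 against 1 (122, 20.7 to 4959). Intervals this wide leave the size of both ratios open over more than 2 orders of magnitude. *Hs3st3a1*, which sulfates heparan chains, had 66 UMIs against 4 (51.8, 19.3 to 196), and *Cbr2*, a carbonyl reductase, 186 against 14 (41.7, 24.2 to 77.8). Within the vas deferens, where Muscle 2 and 209 myofibroblasts came from 1 library, these ratios were smaller: 10.2 for *Amhr2*, 16.5 for *Rspo2*, 22.1 for *Rims1*, 16.8 for *Unc5d*, 11.4 for *Hs3st3a1*, 9.80 for *Kcnc1*, 7.96 for *Kcnj2*, 24.4 for *Cbr2* and at least 21.04 for *Pilra*. Leaving out the corpus library gave 30.7 for *Amhr2*, 69.01 for *Rspo2*, 67.2 for *Rims1*, 48.7 for *Unc5d*, 29.2 for *Hs3st3a1*, 70.8 for *Kcnj2* and at least 60.8 for *Pilra*, and leaving out the called doublets gave 37.1 for *Rspo2* and 71.0 for *Kcnc1*.

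Of 26 transcription factors of smooth muscle entered, 1 was at least 4-fold higher and 6 lower, beside 3.54% and 12.2% of all genes. *Meis2*, a homeodomain factor, was the one higher (5.58, 4.58 to 6.83, and 4.16 and 3.91 within the vas deferens and the cauda). *Klf4*, which represses contractile genes in smooth muscle, was 7.65-fold (6.68 to 8.80) lower, and *Nr2f2*, *Nr4a1* and *Mef2a* had ratios of 1.53, 0.363 and 0.791. Of 17 genes of cyclic GMP and cyclic AMP relaxation, 0 were at least 4-fold higher and 5 lower. *Rgs2*, which shortens signaling from contractile receptors, was 5.80-fold (5.27 to 6.38) lower, while *Mrvi1*, which carries the cyclic GMP signal to the calcium store, had a ratio of 2.86 and *Rgs4* one of 3.78.

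Matrix and secreted signals were low in Muscle 2. Of 24 genes of interstitial collagen and fibroblasts, 0 were at least 4-fold higher and 18 lower, with a median ratio of 0.103, and the list took 0.138% of its UMIs against 0.866% in myofibroblasts. *Dcn*, the collagen-binding proteoglycan decorin, had 94.1 UPM against 1852, and *Col1a2*, a chain of type I collagen, 116 against 567, which are 19.7 and 4.88-fold lower. *Fn1*, fibronectin, was the main exception, at 197 against 123 (1.60), with ratios of 5.68 in the vas deferens and 0.506 in the cauda. Of 27 basement membrane and elastic fiber genes 0 were at least 4-fold higher and 11 lower, and *Col4a1* (1.57), *Itga1* (3.15) and *Itgb1* (1.16), which encode a chain of type IV collagen and 2 integrin subunits, were among the genes at or above the myofibroblast level. Of 44 growth factors and chemokines 1 was at least 4-fold higher and 24 lower, with a median ratio of 0.214.

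The 10 genes lowest against myofibroblasts were nearly absent from Muscle 2. *Mfap4*, an elastic microfibril protein, had 11 UMIs in Muscle 2 (9.0 UPM) against 977 UPM, 109-fold (60.6 to 218) lower, and *Sfrp1*, a secreted Wnt antagonist, had 4 UMIs against 1342 in myofibroblasts (107-fold, 41.6 to 393). *Bmp4*, a growth factor of the BMP family, had 1 UMI against 1071, a ratio of 0.00293 with an interval of 7.42e-05 to 0.0164. *Cldn11*, *Fxyd6*, *Edn3*, *Gpc3* and *Cygb*, which encode a tight junction protein, a regulator of the sodium pump, an endothelin, a glypican and a globin, also had 1 UMI each, *Hoxc8*, a homeobox factor, had 2, and *Ltbp4*, which tethers latent TGF-β, had 3. All 10 had at least 374 UMIs in myofibroblasts. With the vas deferens library left out, which leaves 33 cells of Muscle 2, the 10 ratios lay between 0.0129 for *Cldn11* and 0.122 for *Cygb*, and several rested on the floor of 3 UMIs.

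The same directions were seen within single libraries, whose cells are part of the totals. Within the vas deferens, 291 of 5675 genes were at least 4-fold higher in Muscle 2 than in its myofibroblasts (5.13%) and 562 lower (9.9%). Within the cauda, 95 of 4072 were higher (2.33%) and 516 lower (12.7%). Of the 314 genes higher in all cells, 293 entered in the vas deferens, all 293 with a ratio over 1 and 196 at least 4-fold, and 111 entered in the cauda, 110 with a ratio over 1 and 73 at least 4-fold. Of the 1084 lower genes, 454 entered in the vas deferens and 454 had a ratio under 1, and 520 entered in the cauda with 519 under 1. Of the 975 myofibroblasts, 184 came from the caput and 420 from the corpus, where Muscle 2 was near absent. Within the vas deferens and the cauda, 384 and 300 of those lower genes were at least 4-fold lower.

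Against all 8378 non-muscle cells, 462 of 12135 genes were at least 4-fold higher in Muscle 2 (3.81%) and 1870 at least 4-fold lower (15.4%). With the vas deferens library left out, 1339 genes were higher and 894 lower, so which side was larger turned on that library. Lower genes were found in many lists: 17 of 17 principal cell genes, 17 of 28 of interstitial collagen and fibroblasts, 22 of 49 growth factors and chemokines, 8 of 12 endothelial and 8 of 12 immune genes. *Tnnc2* was 402-fold (347 to 469) higher, *Pcp4* 263-fold (249.7 to 277), *Ckm* 228-fold (186 to 282), *Ldb3* 212-fold (146 to 320.1) and *P2rx1* 127-fold (104 to 156). *Kcnq5*, a voltage-gated potassium channel, had 56 UMIs against 7 (164, 74.7 to 428), and *Kcnc1*, *Rspo2*, *Rims1* and *Pilra* completed the 10 largest ratios with 67, 39, 38 and 103 UMIs. Of 64 filament genes, 36 were at least 4-fold higher and 4 lower, with a median ratio of 4.67, against 0.750 over all genes entered. The ratios to non-muscle cells of the vas deferens alone were smaller, at 196 for *Tnnc2*, 155 for *Pcp4*, 130.3 for *Ckm*, 137 for *Ldb3* and 68.3 for *P2rx1*.

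The 5 lowest genes were products of the epididymal epithelium. *Gpx5*, a secreted glutathione peroxidase, had 2 UMIs in Muscle 2 against 102261, *Lcn5*, a lipocalin, 2 against 51404, *Adam7*, a membrane protein handed to sperm, 1 against 18691, and *Krt14*, the keratin of basal cells, 1 against 18237. *Spag11b*, a defensin-like sperm-binding protein, had 3 against 78368. With the caput library left out, where Muscle 2 had no cells, the ratio of *Spag11b* was 1.24 and that of *Gpx5* 0.692, so for these the difference came from the caput. In the vas deferens alone the ratio was 0.126 for *Adam7*, 0.367 for *Lcn5* and 0.00234 for *Krt14*.

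Of 5799 genes with at least 20 UMIs in Muscle 2, 253 were highest there among the 34 populations and 722 were first or second. In 464 of those 722, the other of the top 2 places was held by Muscle 1. *Tpm2*, *Actg2*, *Tagln*, *Tpm1*, *Cnn1*, *Myl6*, *Myl9*, *Des*, *Pcp4*, *Tnnc2* and *Hspb6* were highest in Muscle 2, and *Mylk*, *Myh11*, *Acta2*, *Acta1*, *Ckm*, *Ldb3*, *Synm*, *Ank1* and *Atp2a2* were second to Muscle 1.

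The filament genes barely separated Muscle 2 from Muscle 1. Of 4110 genes entered, 191 were at least 4-fold higher in Muscle 2 (4.65%) and 76 lower (1.85%), and within the vas deferens 203 of 3788 (5.36%) and 65 (1.72%). Of 59 filament genes, 1 was at least 4-fold higher and 1 lower, and their median ratio was 0.818, near the 0.808 over all genes. *Actg2* stood at 15395 UPM in Muscle 2 and 15367 in Muscle 1 (ratio 1.002, 0.970 to 1.03), *Acta2* at 17492 and 20057 (0.872), *Tagln* at 12193 and 5692 (2.14) and *Myl6* at 13435 and 5493 (2.45).

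Of the lists, ribosomal protein genes differed between the 2 muscle populations by the largest share of UMIs. Ribosomal protein genes took 13.4% (13.4 to 13.5) of the UMIs of Muscle 2 and 2.71% (2.66 to 2.77) of Muscle 1, against 18.8% in myofibroblasts and 17.98% in non-muscle cells. Of 80 ribosomal protein genes entered, 60 were at least 4-fold higher in Muscle 2 than in Muscle 1, 79 had a ratio over 1, and the median ratio was 5.29. Against myofibroblasts the same genes ran slightly low, 73 of 80 with a ratio under 1 and a median of 0.706. In this share Muscle 2 thus lay nearer to the other cells than Muscle 1 did.

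The gap was seen cell by cell, and in both the vas deferens and the cauda. The study cut its muscle subclusters from these same counts and names ribosomal protein genes as what set them apart. The values below therefore describe that cut and give it no support. The share was 13.2% in the vas deferens and 14.4% in the cauda for Muscle 2, and 2.66% and 2.86% for Muscle 1. Among cells with at least 1000 UMIs, the lowest, median and highest share were 4.81%, 13.4% and 22.5% in the 223 of Muscle 2 and 0.172%, 2.37% and 7.63% in the 140 of Muscle 1. All but 2 of the 223 (99.1%) lay above the highest Muscle 1 cell, and 129 of 140 Muscle 1 cells (92.1%) lay below the lowest Muscle 2 cell.

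**Figure D3:**
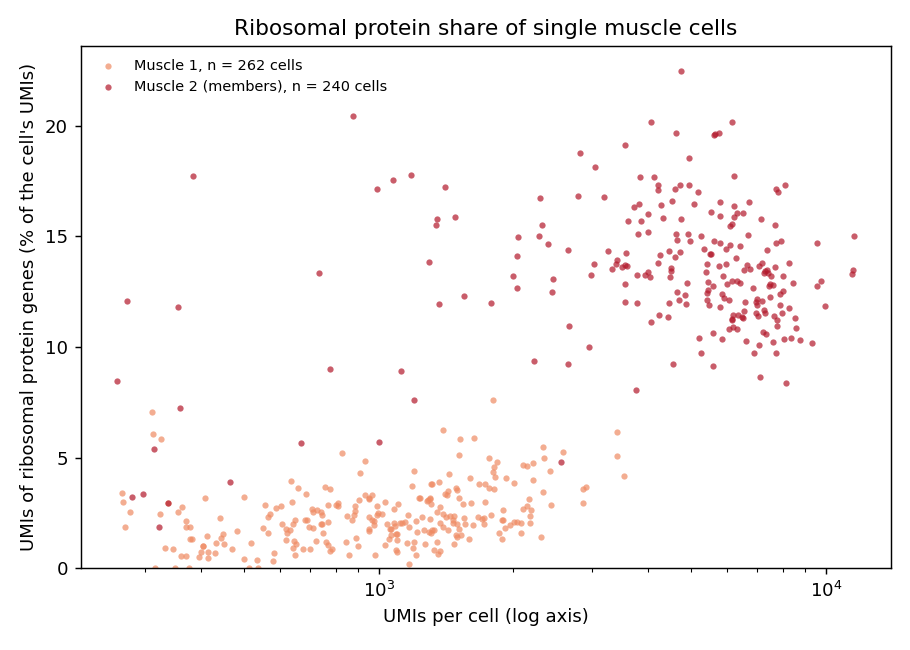
Share of each muscle cell's UMIs that fell on ribosomal protein genes (vertical, %) against the UMIs of the cell (horizontal, log axis), with 1 point per cell. Muscle 2 cells (dark red, 240) have a median of 13.3% and hold more UMIs than Muscle 1 cells (orange, 262), which have a median of 2.18% and reach 7.63% at most.

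Depth moved with this difference. The median Muscle 1 cell had 1080.5 UMIs against 5423.5 in Muscle 2. The study, in contrast, states that it saw no large difference in UMIs between its muscle subclusters. It did not pursue them further, since the split might be a hidden artifact. The ambient RNA that the authors subtracted lowered the total by 7.45% in Muscle 1, 1.74% in Muscle 2 and 2.86% in myofibroblasts. When both were thinned to 1000 UMIs the median cell showed 586 genes in Muscle 2 and 660.5 in Muscle 1. The part of depth and ambient removal in the ribosomal difference was not tested. Ribosomal protein genes share sequence with many pseudogenes and reads with several possible origins were left out by the authors, so the level of any 1 of them is uncertain.

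The 10 largest ratios over Muscle 1 were mostly from these lists. *Rps26* had 1532 UPM against 62.8 (24.4, 15.6 to 40.6), *Rpl12* 1007 against 82.6 (12.2), *Rpl15* 549.8 against 46.2 (11.9), *Rpl35a* 700.4 against 59.5 (11.8) and *Rpl22* 769 against 69.4 (11.1). *Btf3*, a subunit of the complex that escorts newly made proteins, had 469 against 33.0 (14.2, 7.66 to 29.8), and *Gm13826*, a predicted gene whose reads may belong to a related locus, 476 against 39.6 (12.0). *Atp5e* and *Usmg5*, which encode small subunits of the ATP synthase, had ratios of 12.2 (8.26 to 18.7) and 11.7 (7.68 to 18.7). *Vim* had 148 UMIs against 2 (18.3, 4.99 to 153), and the ratio was 6.14 with the corpus library, and so the cell with 97 of them, left out. With the vas deferens library left out, the ratios were 9.56 for *Rps26*, 6.92 for *Btf3*, 7.68 for *Gm13826*, 5.49 for *Rpl35a* and 5.35 for *Usmg5*.

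The respiratory chain followed in the same direction, and its share was also above that of myofibroblasts and of non-muscle cells. Its genes took 6.36% (6.32 to 6.41) of the UMIs of Muscle 2, 2.78% of Muscle 1, 2.17% of myofibroblasts and 2.50% of non-muscle cells. The share of Muscle 2 was 6.40% in the vas deferens and 6.27% in the cauda. Against Muscle 1, 30 of 77 genes were at least 4-fold higher and 0 lower (median 2.71). Against myofibroblasts, 22 of 80 were at least 4-fold higher and 2 lower (median 2.92). Against non-muscle cells 4 of 82 were at least 4-fold higher and 2 lower (median 2.38), beside 3.81% and 15.4% of all genes, so there the list differed by many moderate ratios.

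*Ndufa4*, a subunit of cytochrome oxidase, had 4205 UPM in Muscle 2, 2844 in Muscle 1 and 629 in myofibroblasts (ratio to the last 6.69, 6.37 to 7.02). *Cox6c*, another subunit of that complex, had 7562, 6537 and 2326, and *Cox8a* 3219, 2352 and 901. Not all of the list set the 2 muscle populations apart, since *Cox6c* was 1.16-fold and *Ndufa4* 1.48-fold higher in Muscle 2, while *Cox7a2* and *Cox7c* were 2.91-fold and 3.01-fold. The proteins of the mitochondrial ribosome took 0.648% against 0.414% and 0.345%, and 4 of 71 were at least 4-fold higher than in myofibroblasts and 1 lower, near the 3.54% of all genes that were higher, among them *Mrps21* (6.61, 5.62 to 7.79). Other genes of energy metabolism were mixed: 3 of 25 were at least 4-fold higher than in myofibroblasts and 1 lower, with *Fabp3*, a fatty acid carrier, at 5.78-fold and *Ckb*, the brain-type creatine kinase, at 3.20-fold, and *Aldoa*, *Ldha* and *Pkm* of glycolysis at 0.977, 0.518 and 0.866-fold.

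**Figure D4:**
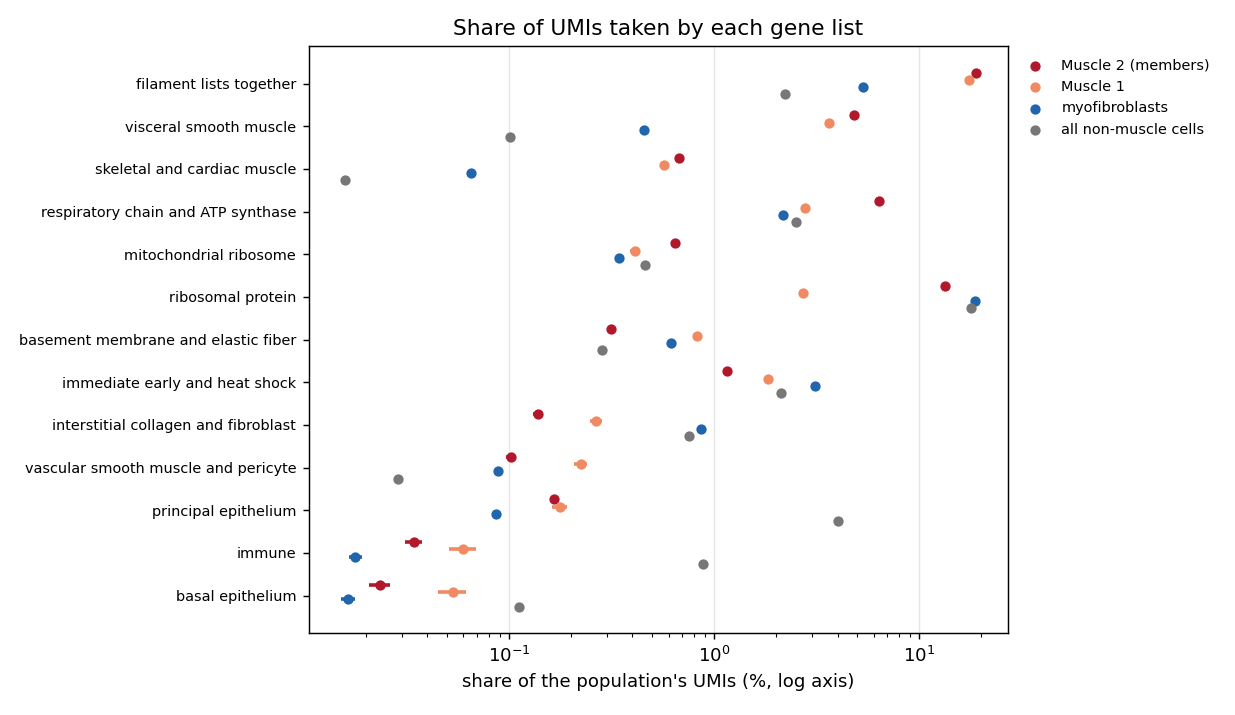
Share of each population's UMIs that fell on 13 gene lists (%, log axis), with Clopper-Pearson 95% intervals as bars, for Muscle 2 (dark red), Muscle 1 (orange), myofibroblasts (blue) and all non-muscle cells (grey). Muscle 2 and Muscle 1 lie together for the filament lists and apart for the ribosomal protein list, where Muscle 1 stands at 2.71% and the other 3 groups between 13.4% and 18.8%.

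The genes lower in Muscle 2 than in Muscle 1 were of mixed kind, and most had few UMIs. *Edn2*, an endothelin, had 66.3 UPM against 416, 6.28-fold (4.71 to 8.41) lower, but was 19.6-fold (10.8 to 38.3) higher than in myofibroblasts. *Gpr123*, an adhesion receptor, had 26.2 against 201 (7.70-fold, 4.94 to 12.2), and *Rnf121*, a ubiquitin ligase, 27.0 against 145 (5.38-fold, 3.35 to 8.73). The others of the 10 were *Sun2*, *Ap3m1*, *Agbl3*, *Magi3*, *Lpcat3*, *Lrch3* and *Neu1*, with between 11 and 20 UMIs in Muscle 2 and inverse ratios between 5.38 and 7.71. *P2rx1* (2.55-fold lower), *Atp2a2* (2.41-fold) and *Flna* (2.61-fold) lay short of 4-fold, and *Tnnc2* (2.94-fold), *Pcp4* (2.21-fold) and *Tpm2* (2.07-fold) lay on the higher side. The basement membrane and elastic fiber list took 0.314% of UMIs in Muscle 2 and 0.826% in Muscle 1, with a median ratio of 0.372 over 18 genes and 0 at least 4-fold apart. The receptor list took 0.0933% and 0.217%.

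Immediate early and heat shock genes, which are known to rise when tissue is dissociated, were low in Muscle 2. They took 1.16% of its UMIs, 1.84% in Muscle 1, 3.12% in myofibroblasts and 2.12% in non-muscle cells. Against myofibroblasts of all libraries 0 of 35 were at least 4-fold higher and 10 lower. Within single libraries fewer were: 3 of 33 in the vas deferens and 4 of 34 in the cauda, beside 9.9% and 12.7% of all genes there. The shares in Muscle 2 and in myofibroblasts were 1.10% and 2.13% in the vas deferens and 1.38% and 2.52% in the cauda. *Fos* had 512 UPM in Muscle 2, 1192 in Muscle 1 and 2847 in myofibroblasts, and *Junb* 850.1, 2193 and 3399. *Egr1* and *Gadd45g* differed less, with ratios to myofibroblasts of 0.617 and 0.817, and 1.33 and 1.24 within the vas deferens.

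Markers of visceral smooth muscle took a larger share of UMIs than those of blood vessel muscle, but the lists differ in make-up. The visceral list includes abundant contractile genes of the filament lists, such as *Actg2*, *Des*, *Synpo2* and *Cnn1*, and the vascular list has none. The shares of the lists therefore cannot be set against each other to tell visceral from vascular muscle. Of 16 visceral genes entered, 11 were at least 4-fold higher than in myofibroblasts and 2 lower, with a median ratio of 8.02, and the list took 4.81% of UMIs in Muscle 2, 3.65% in Muscle 1 and 0.457% in myofibroblasts. *Cnn1*, calponin, had 7117, 4843 and 1079.9 UPM. Of 20 vascular and pericyte genes entered, 1 was at least 4-fold higher and 8 lower, with a median ratio of 0.410, and the list took 0.102%, 0.223% and 0.0884%. Non-muscle cells held 0.0287%, and against them 6 of 18 vascular genes were at least 4-fold higher and 5 lower. The relation to myofibroblasts turned by library. Among vas deferens cells the share was 0.101% against 0.220% (0 higher and 10 lower of 15), and in the cauda 0.0829% against 0.0464% (2 higher and 1 lower of 9). The one higher in all libraries was *Cspg4*, the NG2 proteoglycan (6.76, 4.57 to 10.2), while *Art3* and *Mcam* had ratios of 2.67 and 2.18, and 4 of the 21 genes were at 0 in Muscle 2.

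Markers of other cell types were near 0. The 12 endothelial genes held 13 of the 1222218 UMIs of Muscle 2, with 5 at 0, the 19 genes of glia and nerve also 13, with 13 at 0, and the 8 genes of clear cells 0. The 5 genes of interstitial cells of Cajal held 51 UMIs, of which *Etv1*, a transcription factor, had 26, and the 8 basal epithelial genes 287, of which *Dst*, also a muscle gene, had 279. The 12 immune genes held 0.0343%, mostly *Cd52* (301 UPM), which principal cells also make and which stood at 8032 UPM over non-muscle cells. Against myofibroblasts, 4 of 4 endothelial, 2 of 4 glial, 2 of 3 Cajal, 0 of 2 immune and 1 of 2 basal genes entered were at least 4-fold lower and 0 were higher.

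Principal cell transcripts were present and uneven. The 17 genes took 0.165% of UMIs in Muscle 2, against 0.177% in Muscle 1, 0.0863% in myofibroblasts and 4.02% in non-muscle cells, and 0.195% in the vas deferens cells against 0.0345% in the cauda cells. *Akr1b7*, an aldose reductase of the epithelium, had 895 UMIs in 14 of the 240 cells, 302 of them in 1 cell, and *Crisp1*, a secreted sperm-coating protein, had 949. *Akr1b7* was 9.37-fold higher than in myofibroblasts and was the 1 of 12 principal genes that was, 5 being lower. Among the 15 called doublets the filament share had a median of 13.6% against 19.1% in the other Muscle 2 cells, and the principal cell share a median of 0.156%. With the called doublets left out, the share of the principal cell list in Muscle 2 was 0.0283% and that of the immune list 0.0116%. Free RNA as a source of the rest was not tested.

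Muscle 2 drew its cells from 2 of the authors' 21 clusters, Cluster19 with 171 cells and Cluster10 with 69, and 260 of the 262 Muscle 1 cells were also in Cluster10. In ribosomal share the 69 cells in Cluster10 were close to the rest of Muscle 2 and not to Muscle 1 (12.5% against 13.7% in Cluster19), and so was their filament share (19.6% against 18.7%). They differed in *Actb*, the cytoplasmic actin, whose level by cluster was looked at after values were seen. Of 3926 genes entered, 23 were at least 4-fold higher in Cluster10 (0.586%) and 33 lower (0.841%), and many of these rested on few cells: *Rergl* and most *Vim* UMIs on the 1 corpus cell, and the 94 *Igfbp2* UMIs on 13 cells.

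The median Cluster10 cell of Muscle 2 had 30204 UPM of *Actb* and the median Cluster19 cell 5180. In the vas deferens the medians were 30924 and 5324, and in the cauda 27516 (9 cells) and 4974 (22 cells). Among cells with at least 1000 UMIs they were 30204 and 5331. A level above the 90th percentile of Cluster19 was seen in 51 of the 69 Cluster10 cells of Muscle 2 and, in Muscle 1, in 76 of 262 cells, whose median was 7992 UPM. High *Actb* therefore occurred in part of both muscle populations, and the median myofibroblast had 2405 UPM. The clusters were cut from these same counts, so the difference is a description. The share of principal cell genes was also higher in Cluster10 (0.391% against 0.0934%).

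**Figure D5:**
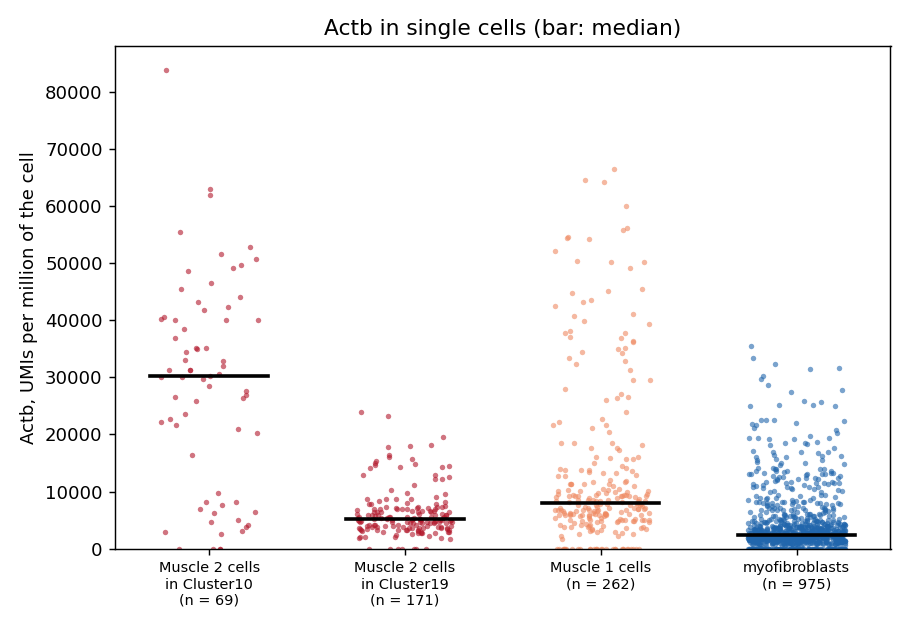
*Actb* in single cells, in UPM of the cell, for Muscle 2 cells in Cluster10 (69) and in Cluster19 (171), Muscle 1 cells (262) and myofibroblasts (975); each point is 1 cell and the bar is the median. The Cluster10 cells of Muscle 2 have a median of 30204 against 5180 in Cluster19, and Muscle 1 has both low and high cells around a median of 7992.

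The Muscle 2 cells of the vas deferens were last set against the 31 of the cauda. Of 4063 genes entered, 184 were at least 4-fold higher in the vas deferens (4.53%) and 9 lower (0.222%), and the median ratio was 1.29. The cauda cells held 223157 UMIs, so a gene reached 20 UMIs there at 89.6 UPM and in the vas deferens cells at 20.1 UPM, and fewer genes could enter by being higher in the cauda. The genes named here were chosen after their values were seen.

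*Hhip*, a membrane protein that binds and restrains hedgehog ligands, had 171 UMIs in the vas deferens cells (172 UPM) and 1 in the cauda cells, spread over 78 cells. *Foxf2*, a mesenchymal transcription factor, had 71 against 1, and *Wif1*, a secreted Wnt inhibitor, 53 against 1, in 54 and 41 cells. In Muscle 1, *Hhip* was at 589 UPM in the vas deferens (158 UMIs) and 65.8 in the cauda (2 UMIs). *Hhip*, *Foxf2* and *Wif1* thus had 2, 1 and 4 UMIs among the 30382 UMIs of the cauda cells of Muscle 1, each too few to place a level. In the other direction, *Ppp1r14a*, an inhibitor of myosin phosphatase, had 519.8 UPM in the cauda cells and 72.5 in the vas deferens cells, 7.17-fold lower (5.30 to 9.76), and 7 UMIs against 1 in Muscle 1 (230.4 and 3.73 UPM). *Akap12*, a kinase anchor, had 690.1 against 141, *Adamts4*, a protease of the matrix, 175 against 23.2, and *Penk*, the precursor of enkephalins, 287 against 67.5. *Igfbp2*, an insulin-like growth factor binding protein, had 363 against 13.1, in 13 cells of which 1 held 39 of the 94 UMIs. *Ppp1r14a* thus ran higher in the cauda than in the vas deferens in both muscle populations, but in Muscle 1 on only 7 UMIs against 1. Region, library and dissection cannot be told apart with 1 library each.

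Of 6 skeletal and cardiac muscle genes entered, 0 were at least 4-fold apart between the vas deferens and cauda cells, and their median ratio was 1.98 beside 1.29 over all genes. *Tnnc2* was 2.09-fold (1.87 to 2.34) higher in the vas deferens, *Acta1* 1.87-fold (1.67 to 2.11), and *Ckm* 1.52-fold (1.28 to 1.82). *Pcp4*, from outside that list, was 1.63-fold (1.56 to 1.70) higher. After thinning *Tnnc2* was seen in 71.2% of 191 vas deferens cells and 54.8% of 31 cauda cells. *Acta2* and *Tagln* ran the other way, with 16422 against 22204 UPM and 11618 against 14662.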

How the data were processed

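The deposited table holds whole-number counts of UMIs for 16892 genes in 8880 cells, made by the authors, and a deposited cell table gives each cell's library, cluster and population name, from which all groups were taken. Per the labels and the study's methods, reads were converted with bcl2fastq and aligned with HISAT2 2.0.4 to mm10, counted per gene as UMIs with ESAT, merging UMIs that differ by 1 mismatch and leaving out reads of several origins. Cells were limited by UMIs and ambient RNA was subtracted with a modified SoupX, which lowered Muscle 2 totals by 1.74%. Of the columns, 0 belonged to other samples.

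The members and gene lists were chosen with earlier results of these data known. UMIs were summed per population and library with Python 3.11.15, numpy 2.4.6, pandas 2.3.3 and scipy 1.17.1, and the steps were tested on simulated data. A gene entered a comparison with at least 20 UMIs in the higher group and was counted at a ratio of at least 4, and a group at 0 was set to a floor of 3 UMIs. Where a gene had 1 to 3 UMIs the ratio is given with its interval. Cells were thinned to 1000 UMIs once, with a fixed seed. Confidence levels are 95%. Doublets were called per library with scikit-learn 1.9.0 by simulated cell pairs (1500 variable genes, 30 components, 50 neighbours, a rate of 0.8% per 1000 cells). The caller marked 178 cells, which were kept and left out in an alternative. Figures were drawn with matplotlib 3.10.9.

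Named genes were the 3 markers and *Gfra4*, the 15 largest and 10 smallest ratios to myofibroblasts, 10 and 5 to non-muscle cells, 10 and 10 to Muscle 1, up to 6 members of each list by level, and every receptor and neurotrophic gene with at least 20 UMIs. Some genes that this rule names are not reported here. *Actg1*, *Vcl* and *Fermt2* are named for their promoters, and *Vim* among filament genes, *Rergl*, *Crip1*, *Hhip*, *Foxf2*, *Wif1*, *Ppp1r14a*, *Akap12*, *Adamts4*, *Igfbp2* and *Kcnj8* were chosen after their values were seen. A list of nuclear long RNAs is void, since 1 of its 9 genes was in the table. Promoter sequences are from RefSeq (GRCm38.p6), and 12593 of 16892 genes matched one by symbol. Gene positions are from GENCODE on GRCm38. Alternatives were a 2-fold limit, at least 50 UMIs, a mean over cells, totals without ribosomal protein genes, cells with at least 1000 UMIs, single libraries left out or alone, called doublets left out, and 500 UMIs or no thinning.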

Additional observations from a re-analysis of the deposited data

Results flagged for a closer look

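*Kcnj8*, a pore subunit of ATP-sensitive potassium channels and a marker of vascular muscle and pericytes, stood in opposite relation to myofibroblasts in the 2 libraries that hold nearly all of Muscle 2. In the vas deferens Muscle 2 had 74 UMIs of *Kcnj8* (74.5 UPM) and myofibroblasts 246 (404 UPM), a ratio of 0.1843 (0.140 to 0.240). In the cauda Muscle 2 had 37 (166 UPM) and myofibroblasts 29 (37.0 UPM), a ratio of 4.49 (2.69 to 7.56). The myofibroblast level thus differed more between the libraries than the level of Muscle 2. The difference between the libraries was not tested, since each region had 1 library, and the intervals cover counting error only.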

How the results depend on the processing

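No paired analysis was possible because each region has 1 library, pooled from the same mice, so no animal can be followed across regions. There are no replicates to leave out, so libraries were left out in turn. Of 616 recomputed ratios of single genes, 615 kept their direction, and *Spag11b* turned from lower to higher against non-muscle cells (1.24 without the caput library). Most of these genes were chosen for ratios far from 1 and were recomputed from the same cells or part of them. That they kept their direction was therefore nearly fixed in advance and gives no support. Sizes moved more: against myofibroblasts, *Amhr2* had 0.0625 times its main ratio in the vas deferens alone. *Bmp4* had 13.8 times its main ratio without that library. Of 66 recomputed counts of genes, 50 stayed within 1.5 times the reported count. With a 2-fold limit the higher and lower counts were 1070 and 2523 against myofibroblasts, 1532 and 3824 against non-muscle cells, and 561 and 1063 against Muscle 1. With at least 50 UMIs, 195 genes were higher than in myofibroblasts and 15 lower than in Muscle 1. With the vas deferens library left out, which leaves 33 cells of Muscle 2, the counts were 108 and 663 against myofibroblasts, 1339 and 894 against non-muscle cells, and 13 lower against Muscle 1. The 1339 can include genes at 0 UMIs in Muscle 2 that the floor of 3 UMIs lifted, so it is not comparable with the main count. With the vas deferens library alone 562 were lower than in myofibroblasts. Lower genes against Muscle 1 numbered 36 with ribosomal protein genes left out of the total and 45 in cells with at least 1000 UMIs. Averaged over cells, the ribosomal, respiratory and filament shares were 13.3%, 6.09% and 18.8%, and the levels of *Tpm2*, *Mylk* and *Myh11* 21704, 20594 and 6557 UPM. In the vas deferens alone, the ribosomal share was 13.2% and the filament share 19.2%, as without the cauda, with 21569 UPM of *Mylk* and 6664 of *Myh11*. Without the vas deferens the 3 shares were 14.4%, 6.2% and 17.7%. Without ribosomal genes in the total, the respiratory and filament shares were 7.35% and 21.8%. Without called doublets, they were 6.45% and 19.3%, with 23749 UPM of *Tpm2* and 20268 of *Mylk*. *Myh11* was seen in 90.8% of cells at 500 UMIs and 96.7% unthinned. All 37 listed alternatives were run and 0 were added. Depth limits what the cauda cells (223157 UMIs) and Muscle 1 (302731 UMIs, 30382 in the cauda) can show.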

Other observations

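Several further genes were spread over many Muscle 2 cells, and they were chosen after their values were seen. Of these, *Kcnq5* belongs to the ion channel list and *Penk* to the list of growth factors and chemokines. *Kcnq5*, a voltage-gated potassium channel, had 56 UMIs in 49 cells, with 55 in the vas deferens cells and 1 in the cauda cells. *Akap12* had 295 UMIs in 96 cells, *Penk* 131 in 60 and *Adamts4* 62 in 26, so the higher cauda levels of these genes did not rest on 1 cell. *Crip1*, a small LIM protein, had 342 UMIs in 14 cells, 107 of them in 1, so its level of 264 UPM in the vas deferens cells and 13.4 in the cauda cells describes few cells.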
